A study of Homo sapiens with 4 samples.

Results

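A group of 10 genes of the endoplasmic reticulum (ER) folding machinery and its transcription factor was followed in ES2 cells, an established human ovarian cancer cell line. They were taken by symbol from count tables of 23228 genes, and all 10 were found. They are HSPA5, HYOU1, HSP90B1, DNAJB9, DNAJC3, PDIA4, SDF2L1, CRELD2, HERPUD1 and XBP1. Liq (liquiritigenin) is a plant flavanone used in the study as an agonist of estrogen receptor beta. The vehicle group held 2 samples and the Liq group 2, each treated for 24 h in phenol red-free medium with dextran-charcoal treated serum, and the study's methods give the Liq dose as 100 μM. All samples came from this single cell line, so its response is the only response measured. Nothing states that samples of a group were separate cultures, so p-values measure the spread between these samples, which may be technical.

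The ER folds secreted and membrane proteins with the help of chaperones, J-domain cochaperones and protein disulfide isomerases. When unfolded proteins accumulate, the sensors ATF6, IRE1 (gene ERN1) and PERK (gene EIF2AK3) start the unfolded protein response (UPR). Cleaved ATF6 and the spliced form of XBP1 then bind ER stress response elements in the promoters of chaperone genes together with NF-Y, while PERK acts through ATF4 and CHOP (gene DDIT3). Secretory and cancer cells rely on this response to keep protein folding in step with protein synthesis.

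The promoter elements are shown first because most of these genes carry them. RefSeq promoters (GRCh38.p14, 250 bases before to 50 after each start) were searched on both strands for the element ERSE, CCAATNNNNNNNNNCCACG, and for the form ERSE-II, ATTGGNCCACG. An exact match to either was found for 7 of the 10 genes, counted by gene over all its annotated starts. Counted by promoter, 46 of 35116 of the same length, or 0.131%, held a match, and these 46 belonged to 44 genes. The 46 include promoters of these 7 genes. The elements were searched because they are known from chaperone promoters, so the contrast is not an independent result. ERSE was found at HSPA5, HSP90B1, CRELD2 and XBP1, and ERSE-II at HYOU1, SDF2L1 and HERPUD1. Of the 35116 promoters, 0.077% held ERSE and 0.054% held ERSE-II. A match is a description of the letters and not of a bound site.

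The windows below run 5′ to 3′ on the strand of each gene and end before its start. Capitals mark ERSE, ERSE-II and, at HYOU1, the XBP1 core TGACGTGG, which overlaps the distal ERSE-II there.
HSPA5, chr9:125241386-125241414, minus strand: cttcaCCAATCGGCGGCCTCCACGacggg
HSP90B1, chr12:103930211-103930344, plus strand: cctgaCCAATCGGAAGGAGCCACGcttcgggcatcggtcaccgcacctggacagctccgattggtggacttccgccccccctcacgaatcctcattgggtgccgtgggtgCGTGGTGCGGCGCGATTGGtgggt
CRELD2, chr22:49918549-49918577, plus strand: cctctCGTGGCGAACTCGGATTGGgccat
XBP1, chr22:28800598-28800626, minus strand: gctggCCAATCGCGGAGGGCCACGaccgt
HYOU1, chr11:119057269-119057398, minus strand: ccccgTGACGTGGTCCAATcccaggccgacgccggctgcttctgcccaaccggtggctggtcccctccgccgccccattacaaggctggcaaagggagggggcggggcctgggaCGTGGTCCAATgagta
SDF2L1, chr22:21642109-21642129, plus strand: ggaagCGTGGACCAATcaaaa
HERPUD1, chr16:56932020-56932040, plus strand: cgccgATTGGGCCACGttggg

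HSP90B1 held 2 copies of ERSE in opposite orientations, and HYOU1 held 2 copies of ERSE-II with the same letters. The elements lay between 34 and 194 bases before the start. DNAJB9, DNAJC3 and PDIA4 had no exact match in this window. PDIA4 and XBP1 each had 2 annotated starts in the table, and ERSE stood before only 1 of those of XBP1. The XBP1 core was present in 0.729% of all promoters, and among the 10 genes only in that of HYOU1.

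**Figure D1:**
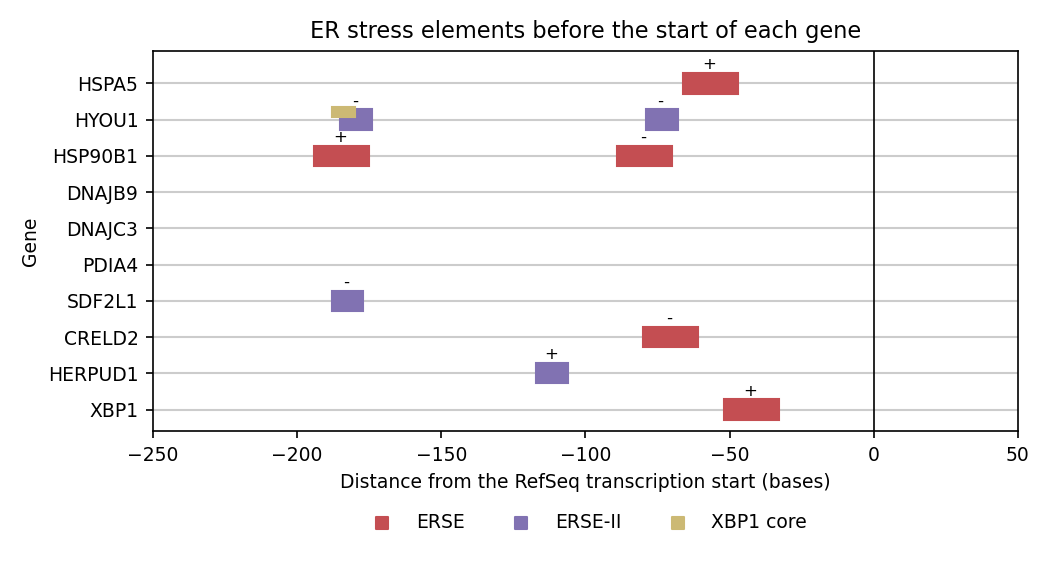
Position of exact element matches on the horizontal axis, in bases from the RefSeq transcription start, for each of the 10 genes (rows). Red boxes are ERSE, purple boxes ERSE-II and the yellow box the XBP1 core, with + and - for orientation, and all lie between 34 and 194 bases before the start.

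The samples held 34573053 to 48933893 reads counted on genes, so that 3 counts correspond to 0.0613 to 0.0868 CPM, the count relative to the library size after TMM normalization. Samples of the same group were closer to each other than samples of different groups. The chi-square per degree of freedom was 6.33 between vehicle samples, 11.1 between Liq samples and 58.4 to 71.4 across groups. No samples were merged. Among 9 markers written for an ovarian carcinoma line, KRT7, KRT8, KRT18, VIM, WT1 and PAX8 were detected, whereas EPCAM and MUC16 had at most 3 counts in any sample. Of the 6 tested, 1 (16.7%) was called higher in Liq (KRT7) and 4 (66.7%) lower (KRT18, VIM, WT1 and PAX8). Over all tested genes these shares were 12.6% and 11.3%. PAX8 was low, at 49 and 46 counts in vehicle and 12 and 29 counts in Liq. The summed level of the 9 markers was 7812 to 8104 CPM in vehicle and 6402 to 7057 CPM in Liq. The part of these marker differences in the results was not tested. Of 11 markers of leukocytes, endothelium, red cells and plasma cells, 4 (CD3E, HBA1 and IGJ among them) had 0 counts in every sample and 3 others (PTPRC, VWF and HBB) had under 10 counts in every sample. The summed level of these 11 markers was 443 to 473 CPM in vehicle and 516 to 537 CPM in Liq, most of it from SDC1, CD68 and CDH5. Of these, SDC1, a plasma cell marker that epithelial cells also express, was called higher (335 to 408 CPM, edgeR adjusted p = 0.00211), CD68 and CDH5 were not called, and their part in the results was not tested. In such bulk samples, fewer cells of a type and less RNA per cell cannot be told apart.

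Liq raised most of this group. With edgeR's quasi-likelihood test fitted on 13546 genes, 8 of the 10 genes had a higher level in Liq at an adjusted p under 0.05 and 0 a lower level, against 12.6% of all tested genes called higher and 11.3% called lower. The 2 genes not called were DNAJB9 and XBP1. The median log2 fold change of the 10 genes was 0.453, with a range of 0.0988 to 0.606, while the median over all tested genes was 0.00619. Among the 8209 tested genes within the same range of mean CPM, 10% were called higher and 14.2% lower, with a median of -0.0334. For all 10 genes both Liq samples lay above both vehicle samples, as was the case for 31.5% of tested genes. Together the 10 genes took 0.2488% and 0.2477% of the gene counts with vehicle, and 0.3482% and 0.3587% with Liq.

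The increases were modest. At the study's thresholds, a change of at least 1.5-fold with an unadjusted p under 0.05, only HYOU1 passed, against 5.37% of tested genes in the upward and 2.49% in the downward direction. That count rested on single samples: HYOU1, SDF2L1 and CRELD2 passed without vehicle replicate 1, HYOU1 and SDF2L1 without Liq replicate 2, and 0 genes without vehicle replicate 2 or without Liq replicate 1. With offsets following the expression level (loess), HSPA5, HYOU1 and PDIA4 passed. For 1 gene in this design, exact permutation of the samples allows no p below 0.3333, so the calls depend on edgeR estimating variation from many genes at once. Leaving out vehicle replicate 1 lost the calls of DNAJC3 and HERPUD1 (6 genes called), leaving out vehicle replicate 2 lost that of HERPUD1 (7 called), and leaving out Liq replicate 1 added that of DNAJB9 (9 called).

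**Figure D2:**
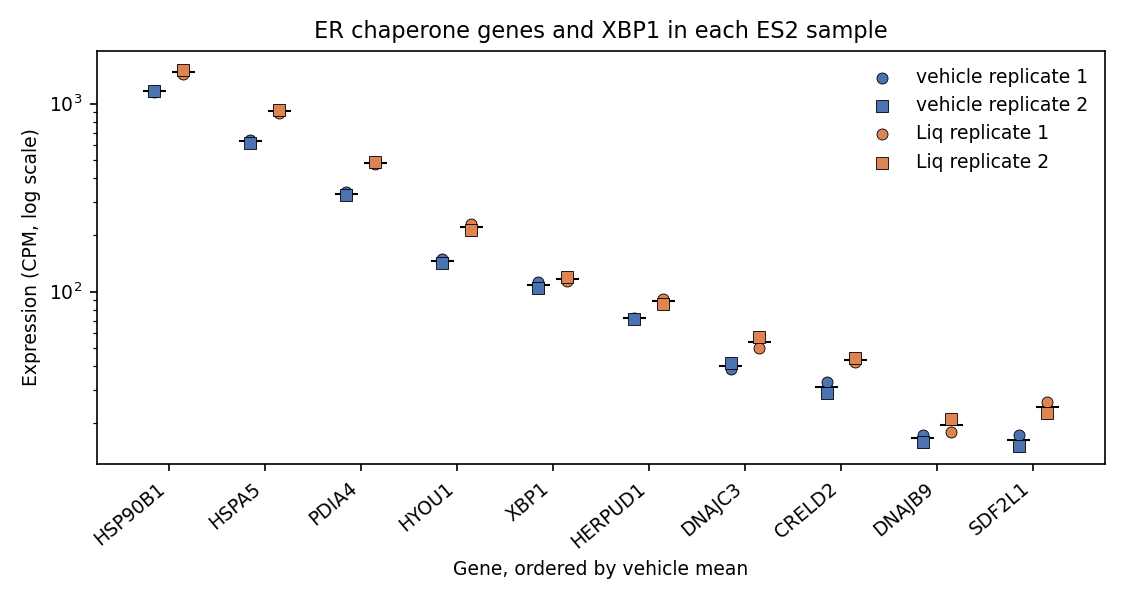
Expression of each gene in CPM (vertical axis, log scale) in the 2 vehicle samples (blue) and the 2 Liq samples (orange), with the mean of each group as a black line. Every orange pair lies above its blue pair, with the smallest separation for XBP1 at 105 and 112 CPM against 113 and 119 CPM.

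The HSP70 and HSP90 chaperones within the group, HSPA5, HYOU1 and HSP90B1, were all called higher. HSPA5 (BiP), the HSP70 that binds unfolded chains and holds the UPR sensors inactive, lies on chromosome 9 from 127997132 to 128003661 (GRCh37). HSPA5 stood at 639 and 618 CPM in the vehicle samples and at 896 and 924 CPM in the Liq samples. Its level was thus well separated between the groups, with a log2 fold change of 0.53 (SE 0.061, edgeR adjusted p = 2.57e-07). HYOU1, a large HSP70-type protein that exchanges nucleotide on BiP, lies on chromosome 11 from 118914899 to 118927938. The level was 149 and 141 CPM in vehicle and 229 and 213 CPM in Liq. The change was 1.52-fold or 0.61 on the log2 scale (SE 0.072, edgeR adjusted p = 5.04e-07). Its 95% interval, 0.46 to 0.75, overlapped those of SDF2L1 (0.36 to 0.78), PDIA4, HSPA5, CRELD2, DNAJC3 and HSP90B1, so their order was not resolved. SDF2L1 stood first without vehicle replicate 1 and without Liq replicate 2, and PDIA4 without Liq replicate 1. An antisense RNA gene overlaps HYOU1 over 667 exonic bases, and the strand setting of the read counting is not given in the sources used here.

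HSP90B1 (GRP94), the HSP90 of the ER lumen, lies on chromosome 12 from 104323885 to 104347709. Samples read 1151 and 1168 CPM in vehicle and 1440 and 1517 CPM in Liq. The confidence interval of its log2 fold change, 0.23 to 0.47, overlapped that of HSPA5, 0.41 to 0.66, so their order was not resolved. The log2 fold change of HSP90B1 was 0.35 (SE 0.058, edgeR adjusted p = 6.55e-05). This value is uncertain, because the tables also list the near copy HSP90B3P, which can share reads with it. HSP90B3P rose as well, by 0.27 on the log2 scale, from 85.9 ± 0.3 to 103.8 ± 1.2 CPM (SD, n = 2, edgeR adjusted p = 0.00839). HSP90B1 also shares 282 exonic bases with C12orf73 on the opposite strand, whose mean was 7.44 CPM with vehicle and 6.93 CPM with Liq.

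Of the J-domain cochaperones of BiP in the group, DNAJC3 was called higher and DNAJB9 was not, although their 95% intervals overlapped. DNAJC3 (p58IPK), which delivers unfolded chains to BiP, lies on chromosome 13 from 96329393 to 96447242. It was measured at 38.7 and 41.9 CPM in vehicle and at 50.2 and 57.2 CPM in Liq, a log2 fold change of 0.42 (SE 0.088, edgeR adjusted p = 0.000999). The call was lost without vehicle replicate 1 (log2 fold change 0.36, edgeR adjusted p = 0.0608). DNAJB9 (ERdj4), which assists BiP in degradation and in holding IRE1 inactive, lies on chromosome 7 from 108210311 to 108215294. DNAJB9 stood at 17.3 and 15.9 CPM in vehicle and at 17.97 and 21.0 CPM in Liq. The Liq samples differed from each other by more than the lower of them differed from vehicle replicate 1, and the log2 fold change of 0.23 (95% interval 0.02 to 0.45) did not pass the threshold (edgeR adjusted p = 0.104). Without Liq replicate 1 it was 0.34 and passed (edgeR adjusted p = 0.0126), whereas without Liq replicate 2 it was 0.11 and without vehicle replicate 2 it was 0.17 (edgeR adjusted p = 0.504 and 0.493).

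PDIA4 (ERp72), a protein disulfide isomerase that forms and rearranges disulfide bonds, lies on chromosome 7 from 148700154 to 148725754. PDIA4 stood at 339 and 325 CPM in vehicle and at 479 and 492 CPM in Liq. With replicates this close, the log2 fold change was 0.55 (SE 0.064, edgeR adjusted p = 4.63e-07), a 46.2% increase. The 95% interval of PDIA4, 0.42 to 0.68, overlapped that of HSPA5, 0.41 to 0.66, and no exact ERSE or ERSE-II stood in its promoter window.

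The small luminal factors SDF2L1 and CRELD2 were both called higher. SDF2L1, a partner of the ER J-domain proteins, lies on chromosome 22 from 21996591 to 21998588. It was measured at 17.4 and 15.2 CPM in vehicle and at 25.8 and 22.7 CPM in Liq, a log2 fold change of 0.57 (SE 0.10, edgeR adjusted p = 0.000203). CRELD2, an ER-resident and secreted protein with EGF-like domains, lies on chromosome 22 from 50311815 to 50321188. CRELD2 stood at 33.1 and 28.8 CPM in vehicle and at 42.3 and 44.6 CPM in Liq, a log2 fold change of 0.49 (SE 0.091, edgeR adjusted p = 0.000274). Both have a paralog in the genome. SDF2, the paralog of SDF2L1, was measured at 36.2 and 35.8 CPM in vehicle and at 35.1 and 33.8 CPM in Liq, with a log2 fold change of -0.06 (95% interval -0.24 to 0.11). CRELD1, the paralog of CRELD2, rose by 0.82 on the log2 scale, from 7.66 ± 0.13 to 13.6 ± 1.0 CPM (SD, n = 2, SE 0.11, edgeR adjusted p = 5.43e-06).

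HERPUD1, a membrane protein of ER-associated degradation (ERAD) that assembles the ubiquitin ligase complex of the ER, lies on chromosome 16 from 56966054 to 56978776. HERPUD1 stood at 72.6 and 71.9 CPM in vehicle and at 91.3 and 86.3 CPM in Liq. The log2 fold change was 0.30 (SE 0.076, edgeR adjusted p = 0.00572). The call was lost without vehicle replicate 1 (edgeR adjusted p = 0.112) and without vehicle replicate 2 (edgeR adjusted p = 0.124), at log2 fold changes of 0.30 and 0.29. Its paralog HERPUD2 was measured at 46.9 and 48.7 CPM in vehicle and at 45.1 and 48.9 CPM in Liq, overlapping groups.

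XBP1, the transcription factor whose messenger RNA is spliced by IRE1 during the UPR, lies on chromosome 22 from 29190543 to 29196585. It was measured at 112 and 105 CPM in vehicle and at 113 and 119 CPM in Liq. The groups were separated by little more than 1 CPM, and the log2 fold change of 0.099 (95% interval -0.05 to 0.25) did not pass the threshold (edgeR adjusted p = 0.361). The upper end of this interval lies below the lower end of the intervals of HSPA5, HYOU1, PDIA4, SDF2L1 and CRELD2. Counts per gene do not separate the spliced from the unspliced form of XBP1, so its splicing was not measured here.

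**Figure D3:**
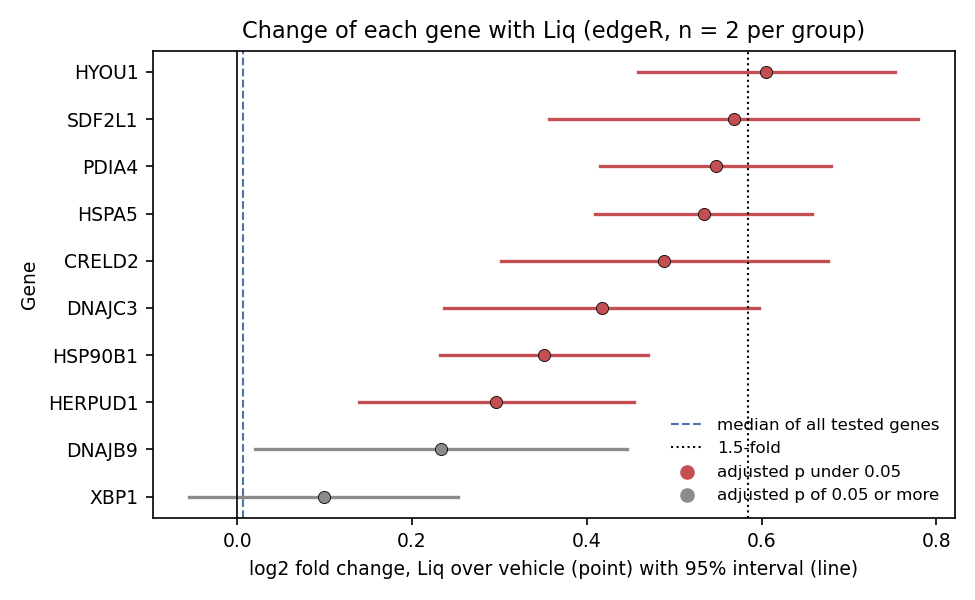
Log2 fold change of each gene, Liq over vehicle, as a point with its 95% interval as a line, red where the adjusted p is under 0.05 and grey otherwise. HYOU1 is the only gene right of the dotted 1.5-fold line, and only the interval of XBP1, from -0.05 to 0.25, includes 0.

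Levels were compared between the genes per length, as RPKM (CPM divided by the length in kilobases of the canonical GENCODE transcript). In vehicle the order by RPKM was HSP90B1 at 417 ± 4, HSPA5 at 160 ± 4, PDIA4 at 120 ± 4, XBP1 at 60.6 ± 2.7, HYOU1 at 31.6 ± 1.2, HERPUD1 at 25.3 ± 0.2, CRELD2 at 21.7 ± 2.2, SDF2L1 at 19.7 ± 1.9, DNAJC3 at 7.20 ± 0.40 and DNAJB9 at 6.90 ± 0.40 (SD, n = 2). CRELD2 and SDF2L1 overlapped between samples, and so did DNAJC3 and DNAJB9, so the order within these pairs was not resolved. The order of the means was the same in Liq, from 531 ± 19 RPKM for HSP90B1 to 8.09 ± 0.89 RPKM for DNAJB9. There HERPUD1 at 31.1 ± 1.2, CRELD2 at 30.4 ± 1.1 and SDF2L1 at 29.4 ± 2.6 RPKM overlapped. HSPA5 and HSP90B1 together held 69.0% to 70.6% of the reads of the 10 genes in every sample, a share not corrected for length.

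**Figure D4:**
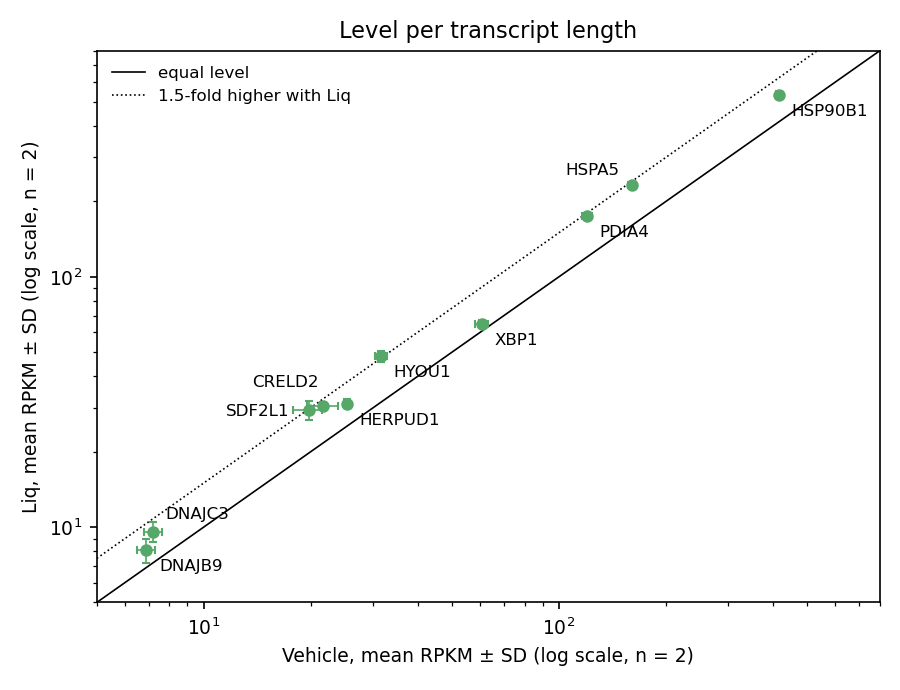
Mean level per length in Liq (vertical) against vehicle (horizontal), both in RPKM on log scales, with SD over 2 samples as bars. All 10 genes lie above the line of equal level, XBP1 (60.6 and 64.9 RPKM) closest to it, and HYOU1 lies just above the dotted 1.5-fold line.

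The other genes of the ER were described with lists written by hand. Of 35 other ER folding genes, all tested, 14 (40%) were called higher and 1 (2.86%) lower (edgeR, adjusted p under 0.05). Over all tested genes these shares were 12.6% and 11.3%. The median log2 fold change of the list was 0.164. The genes with the smallest p-values were CALR, CRELD1, MANF and DNAJB11. CALR (calreticulin), the lectin chaperone that binds calcium in the ER lumen, was measured at 998 and 957 CPM in vehicle and at 1466 and 1372 CPM in Liq, a log2 fold change of 0.54 (SE 0.060, edgeR adjusted p = 1.74e-07). MANF, a secreted ER stress protein that binds BiP, rose by 0.49 on the log2 scale, and DNAJB11, a J-domain cochaperone of BiP, by 0.40 (edgeR adjusted p = 1.95e-05 and 0.000261). The gene called lower was SERPINH1 (HSP47), the collagen chaperone, with a log2 fold change of -0.26, named after its value was seen. Without vehicle replicate 1 the count called higher was 9 and that called lower 0, and without vehicle replicate 2 it was 7.

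Genes of degradation and transport were described in the same way. Of 24 tested ERAD genes of 26, 5 (20.8%) were called higher and 1 (4.17%) lower, beside 12.6% and 11.3% of all tested genes. The median log2 fold change of the list was 0.0644. Those called higher included EDEM2, which directs misfolded glycoproteins to degradation (log2 fold change 0.38), SEL1L, the adaptor of the ubiquitin ligase (0.33), and OS9, a lectin of the same complex (0.29). WFS1, an ER calcium regulator, was also called higher (0.33) and UBE2J2, a ubiquitin-conjugating enzyme, was the gene called lower (-0.25), both named after their values were seen. The 5 higher calls fell to 2 without vehicle replicate 1 and to 0 without vehicle replicate 2, and UBE2J2 was not called without either vehicle sample. Of 31 genes of ER entry and export, 1 (3.23%) was called higher and 2 (6.45%) lower, both shares below those of all tested genes. The gene called higher was LMAN2, a cargo lectin (log2 fold change 0.22). Those called lower were SSR3, a subunit of the translocon-associated complex (-0.32), and SEC24D, a COPII coat subunit (-0.22). The median of this list was 0.0175. Without either vehicle sample 0 were called higher and 1 lower, and without Liq replicate 1, 4 were called higher.

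Of 14 tested regulators of the UPR of 16, 1 was called higher (7.14%) and 2 lower (14.3%), beside 12.6% and 11.3% of all tested genes. CREB3L4, an ER-bound transcription factor, had a log2 fold change of 0.53, CREB3L2, another member of its family, -0.27, and NFYA, a subunit of the NF-Y complex that binds the CCAAT box, -0.25 (edgeR adjusted p = 0.000184, 0.00277 and 0.015). The lower calls numbered 1 without vehicle replicate 1 and 0 without vehicle replicate 2. The log2 fold changes of the 3 sensor genes, named for their role after their values were seen, were -0.02 for ATF6 (95% interval -0.17 to 0.13), -0.13 for ERN1 (-0.33 to 0.08) and 0.07 for EIF2AK3 (-0.13 to 0.27). Sensor activity is not measured by these counts.

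In the PERK-ATF4 branch, 2 of 15 genes were called higher and 2 lower, 13.3% in each direction and near the 12.6% and 11.3% of all tested genes. DDIT4, an inhibitor of mTOR signaling, and NUPR1, a stress-induced nuclear protein, rose by 0.63 and 0.82 on the log2 scale. PPP1R15A (GADD34), which recruits the phosphatase that reverses eIF2α phosphorylation, had a log2 fold change of -0.49, and the secreted glycoprotein STC2 one of -0.33. The lower calls numbered 1 without vehicle replicate 2. ATF4 was measured at 304 and 306 CPM in vehicle and at 304 and 296 CPM in Liq, and DDIT3 at 22.9 and 22.3 CPM in vehicle and at 25.8 and 25.6 CPM in Liq (log2 fold change 0.19, edgeR adjusted p = 0.148), both genes named after their values were seen.

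Among 15 cytosolic and mitochondrial heat shock genes, 2 were called higher (13.3%) and 3 lower (20%), beside 12.6% and 11.3% of all tested genes. HSPA8, the constitutive cytosolic HSP70, had a log2 fold change of -0.40, from 3066 ± 8 CPM to 2322 ± 63 CPM (SD, n = 2), and HSP90AB1, a cytosolic HSP90, one of -0.23. The third was DNAJA1, a cytosolic J-domain cochaperone, at -0.20, named after its value was seen. HSPA1A and HSPA1B, the stress-induced HSP70 pair, rose by 0.41 and 0.46 on the log2 scale, and these values are uncertain because the pair is nearly identical in sequence. HSP90AA1, the other cytosolic paralog of HSP90B1, was measured at 2123 and 2244 CPM in vehicle and at 2067 and 2322 CPM in Liq, overlapping groups. The lower calls numbered 5 without Liq replicate 2.

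**Figure D5:**
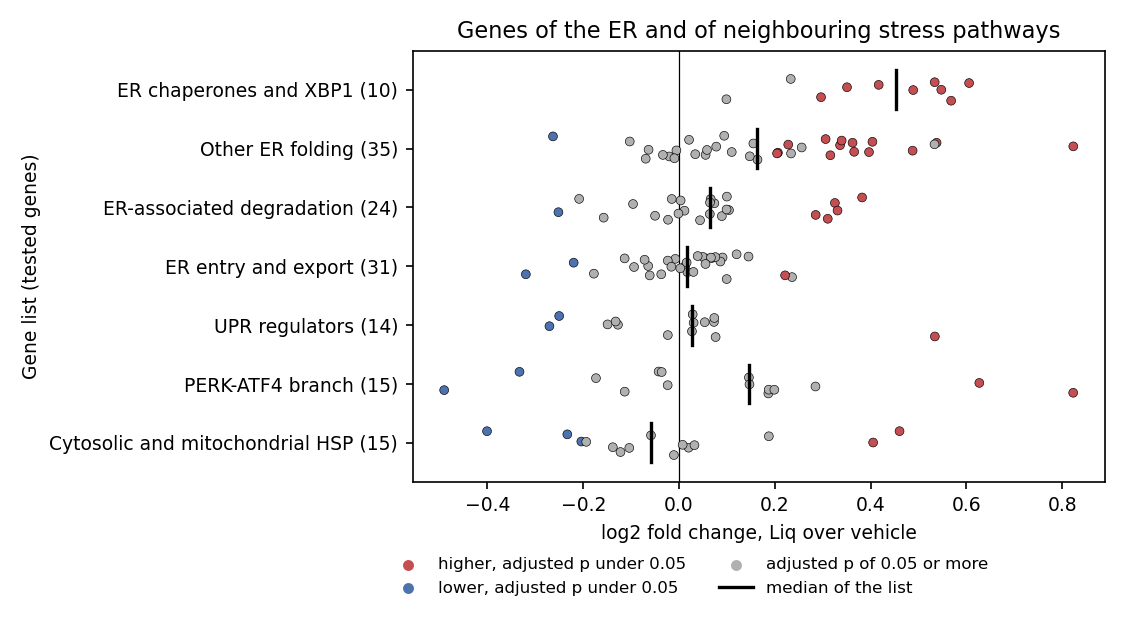
Log2 fold change, Liq over vehicle (horizontal axis), of every tested gene in 7 lists (rows), with the median of each list as a black bar and with genes called higher in red, lower in blue and not called in grey. The median is 0.453 for the ER chaperones and XBP1, 0.164 for other ER folding genes and between -0.0586 and 0.146 for the remaining lists.

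Genes outside the group whose promoters hold the same elements were also measured, a list drawn from sequence after the values were known. Of 44 genes with ERSE or ERSE-II, 30 were tested, and 23 of these are not members of the group. Of the 23, 6 were called higher and 3 lower, beside 12.6% and 11.3% of all tested genes. The median log2 fold change of the 23 was 0.148. Those called higher were CALR, PDIA6 and CANX, which fold proteins in the ER, ALG12, a mannosyltransferase of the ER, NUCB1, a calcium-binding protein of the Golgi, and RAD9A, a DNA damage checkpoint protein. PLS3, SYNPO and ZNF143, which encode an actin bundling protein, an actin-associated protein and a transcription factor, were called lower. The 23 include CALR, PDIA6, CANX, ERO1LB and SERP1, which were already counted in the lists above. Outside those lists, ALG12, NUCB1 and RAD9A were called higher and PLS3, SYNPO and ZNF143 lower. ALG12 lies head to head with CRELD2, and both promoters read the same ERSE, at chr22:49918554-49918572 (GRCh38.p14). ALG12 was measured at 18.02 and 16.5 CPM in vehicle and at 24.4 and 23.7 CPM in Liq, and its log2 fold change of 0.48 was close to the 0.49 of CRELD2. The 2 genes overlap on opposite strands without shared exonic bases.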

How the data were processed

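RNA-seq counts of ES2 cells treated with vehicle or Liq for 24 h were analysed, 2 samples per group, grouped by the sample labels. The files the authors deposited hold raw read counts by gene, 1 file a sample, made from 100-base single-end reads aligned to hg19 with TopHat2 2.0.8b (per the processing notes) and counted by HTSeq, without normalization or pooling. Reads with more than 1 alignment were given to no gene, which lowers genes with close copies. Their tally was 35.63% to 36.23% of all entries, and it may count alignments rather than reads. These tallies stayed out of library sizes and tests.

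The fit used edgeR 4.0.16 under R 4.3.3, with filterByExpr (minimum count 10, minimum total 15; 13546 of 23228 genes kept, all 10 members among them), TMM, glmQLFit and glmQLFTest without a replicate block, and Benjamini-Hochberg adjustment over all tested genes. The SE is the log2 fold change divided by the square root of F, and 95% intervals use the t quantile. Gene positions and lengths are those of GENCODE v44 on GRCh37, and promoters those of RefSeq on GRCh38.p14. The fits were also run on simulated counts with the same dispersion for every gene. That setting is simpler than these data, so it does not test the calls made here. DESeq2 1.42.0 was an alternative, since DESeq, used in the study, was not available here.

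The members, lists and tests were chosen with earlier results of these data known. Named genes were all members, up to 4 genes per list with the smallest p, those past 1.5-fold with an adjusted p under 0.05, and paralogs of members. Some genes these rules and the marker lists select are not reported here.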

Additional observations from a re-analysis of the deposited data

How the results depend on the processing

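Across the 11 alternatives, all 10 genes kept a positive log2 fold change, and HSPA5, HYOU1, HSP90B1, PDIA4, SDF2L1 and CRELD2 kept their calls in each of them. The group had 8 genes called higher and 0 lower under every normalization, filter, test and offset, and with the replicate number as a block (replicate block). Leaving out 1 sample at a time gave 6 to 9 called higher, and a lone sample is then assumed to vary like the other group. Requiring 1.5-fold left 1 gene (HYOU1) at the adjusted and at the unadjusted p. Under this rule, in alternatives chosen after seeing the data, 0 to 3 genes passed with samples left out in turn, 3 with loess offsets and 2 with upper-quartile normalization, and 1 under the other 5 settings.

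The numbers over all tested genes moved more. Those called higher were 1027 by the DESeq2 Wald test, 805 to 1966 with samples left out, 727 at 1.5-fold with an unadjusted p and 581 with an adjusted p. Those called lower were 2474 with the replicate block, 608 to 1814 with samples left out, and 337 and 293 at 1.5-fold. The block was not used in the report because the samples shared only a number, and same-numbered samples deviated from their group means with a correlation of 0.0483. For the other lists, samples left out in turn gave 7 to 16 ER folding genes called higher and 0 to 2 lower, 0 to 6 and 0 to 1 ERAD genes, 0 to 4 and 1 to 3 genes of entry and export, 0 to 3 UPR regulators lower, 1 to 2 PERK-ATF4 genes lower and 2 to 5 heat shock genes lower. With the replicate block, 3 ERAD genes were lower, 2 genes of entry and export and 5 PERK-ATF4 genes were higher, and 5 heat shock genes were lower. With loess offsets along the expression level, 0 ER folding genes, 1 gene of entry and export, 1 UPR regulator and 1 heat shock gene were lower and 3 genes of entry and export were higher. Upper-quartile normalization gave 0 ERAD genes and 1 gene of entry and export lower, and no filter on low counts gave 2 ERAD genes lower. The cause of these shifts was not tested.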

Other observations

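Outside the group, genes with a mean of at least 10 CPM whose profile over the 4 samples lay closest to the median profile of the 10 genes included HSPA1B, ZRANB3, ALPK1 and SIAE, out of 9535 candidates. The measure was the Euclidean distance of log2 CPM centred on the vehicle mean, and it ranged from 0.0341 for HSPA1B to 0.0553 for SIAE. The log2 fold changes of these 4 genes lay between 0.42 and 0.47. HSPA1B encodes a cytosolic HSP70, ZRANB3 a DNA translocase, ALPK1 a kinase and SIAE a sialic acid esterase. None of these 4 genes stood in the ER lists. With 4 samples in 2 groups, such a distance mostly restates the size of the difference between the groups.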
